A study of Mus musculus with 8 samples.

Results

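The genes described here are the 43 enzymes, transporters and regulators of glycolysis, gluconeogenesis and glycogen metabolism, out of 22911 genes that could be named on the array. They were chosen by symbol and not by their measured values, and each gene was read from the brightest of its probes. Livers came from male C57BL/6 mice, 10 weeks old, of which 4 were *Agpat3* WT and 4 *Agpat3* KO, with 1 array per mouse. The deletion is global, so that every cell of the KO liver lacks the gene, and the study compared the genotypes to learn which hepatic mRNAs respond to the loss of this acyltransferase, which puts docosahexaenoic acid into phospholipids. The feeding state at tissue collection is not given in the sources used here.

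Glycolysis breaks glucose down to pyruvate, and gluconeogenesis builds glucose from pyruvate, lactate and glycerol. Most steps are shared, and the directions part at glucose and glucose 6-phosphate, at fructose 6-phosphate and fructose 1,6-bisphosphate, and at phosphoenolpyruvate and pyruvate, where separate enzymes work. The liver stores glucose as glycogen after a meal and releases it between meals, and *Pck1*, *G6pc* and *Ppargc1a* are known for transcription that follows glucagon and insulin.

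The stretches before the start sites of these 3 hormone-responsive members are shown. Among the genes of glucose release, their mRNAs varied most or differed most between the genotypes. Outside the 43, the pathway genes *Pklr*, *Me1*, *Pdk1* and *Pgm3* were called higher in KO liver. Of their stretches, only that of *Pklr* is shown beside these 3. Each holds the 250 bases before the start site in the direction of transcription, from RefSeq on GRCm38.p6, with capitals for the motifs searched for on both strands: ACGTCA, part of the cAMP response element, TGTTTTG, bound by forkhead factors, and CCCGTG, an element known from carbohydrate response.
Pck1: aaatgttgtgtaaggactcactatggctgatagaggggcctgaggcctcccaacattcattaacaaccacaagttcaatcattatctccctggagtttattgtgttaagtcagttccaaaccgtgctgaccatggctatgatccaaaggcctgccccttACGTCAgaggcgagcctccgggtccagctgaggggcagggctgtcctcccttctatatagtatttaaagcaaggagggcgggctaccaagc
Ppargc1a: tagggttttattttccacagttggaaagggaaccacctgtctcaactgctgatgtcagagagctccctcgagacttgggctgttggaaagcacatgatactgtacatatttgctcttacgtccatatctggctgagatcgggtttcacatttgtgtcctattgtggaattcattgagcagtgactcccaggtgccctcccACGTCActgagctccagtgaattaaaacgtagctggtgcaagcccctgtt
G6pc: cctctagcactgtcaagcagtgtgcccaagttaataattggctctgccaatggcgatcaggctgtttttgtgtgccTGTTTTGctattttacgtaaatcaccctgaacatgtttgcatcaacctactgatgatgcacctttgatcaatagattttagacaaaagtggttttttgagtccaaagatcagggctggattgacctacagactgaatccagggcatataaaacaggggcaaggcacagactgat
Pklr: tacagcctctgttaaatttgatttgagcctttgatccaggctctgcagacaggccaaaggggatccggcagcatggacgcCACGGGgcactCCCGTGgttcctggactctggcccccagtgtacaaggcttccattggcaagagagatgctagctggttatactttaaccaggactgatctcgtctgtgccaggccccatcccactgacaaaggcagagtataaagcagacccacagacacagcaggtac

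The *Pck1* stretch, chr2:173152823-173153072 on the plus strand, held ACGTCA beginning 91 bases before the start. That of *Ppargc1a*, chr5:51567726-51567975 on the minus strand, held the same letters beginning 50 bases before the start. The *G6pc* stretch, chr11:101367466-101367715 on the plus strand, held TGTTTTG beginning 174 bases before the start. *Pklr* has 2 listed starts, and the stretch shown, chr3:89136373-89136622 on the plus strand, lies before the downstream one, which liver uses. It held CCCGTG on both strands, beginning 170 and 159 bases before the start, which 71 of 32851 listed stretches (0.216%) did. Of all listed stretches, 6.47% held ACGTCA, 5.56% TGTTTTG and 8.46% CCCGTG on either strand, and of the 40 members with a listed stretch 7, 4 and 7 did. None of these motifs overlapped in the stretches shown. The motifs were searched for as known elements of genes like these, so a match in the stretches shown was likely beforehand. The shares are therefore no test of enrichment, and they bear on no mRNA difference. A match of letters is a description and no measured site, and the start a transcript used was not measured.

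Values are log2 signals from which the array's 75th percentile was taken off, and a difference is KO minus WT on that log2 scale, tested with limma over the 29069 of 56605 probes that were well above background. A single probe is set only against itself, since levels of different probes are not comparable. The summed linear level of a marker list mostly follows its brightest probes, and it is compared only between mice. A gene was called where KO and WT differed by more than 1.5-fold with an adjusted p below 0.2. The study's volcano plot uses the same figures, without saying whether its p is adjusted. *Agpat3* itself was between 5.65 and 5.88 in WT and between -0.58 and 0.02 in KO liver, which fits the labels. WT arrays lay in 1 row of the slide and KO arrays in the other, and an effect of the row cannot be told apart from one of genotype. Hepatocyte markers were well above background in all mice and 0 of 12 was called, with a summed linear level of 7350 to 7910 in WT and 7250 to 7450 in KO liver. In whole liver, fewer cells of a type and less RNA per cell cannot be told apart.

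Of the 43 members, 42 were well above background on all 8 arrays and were tested. *Fbp2*, the muscle fructose bisphosphatase, stayed at background in all 8 mice (not well above it on any array). By limma 0 members were called higher, where 0.939% of all tested probes were, and 0 were called lower, where 0.726% were, which makes 1.67% called in either direction. At an unadjusted limma p under 0.05 there were 5 members (11.9%), beside 13.3% of all probes, namely *Gbe1*, *Ppargc1a*, *Pfkfb2*, *Aldoa* and *Tpi1*. The adjusted p was under 0.2 at any fold for 1 member, *Gbe1*, and for 4.13% of all probes. WT and KO ranges did not overlap for 2 members (4.76%), *Gbe1* and *Tpi1*, and for 8.84% of all probes. The median difference of the 42 members was 0.06, with 29 above 0 and 13 below, beside a median of -0.03 and 43.7% above 0 for all probes. A missed threshold does not show that a gene is equal in both genotypes. The 95% interval of the difference lay wholly within 1.5-fold for 32 of the 42 members (76.2%) and for 74.0% of all probes, and it reached further for the other 10.

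**Figure D1:**
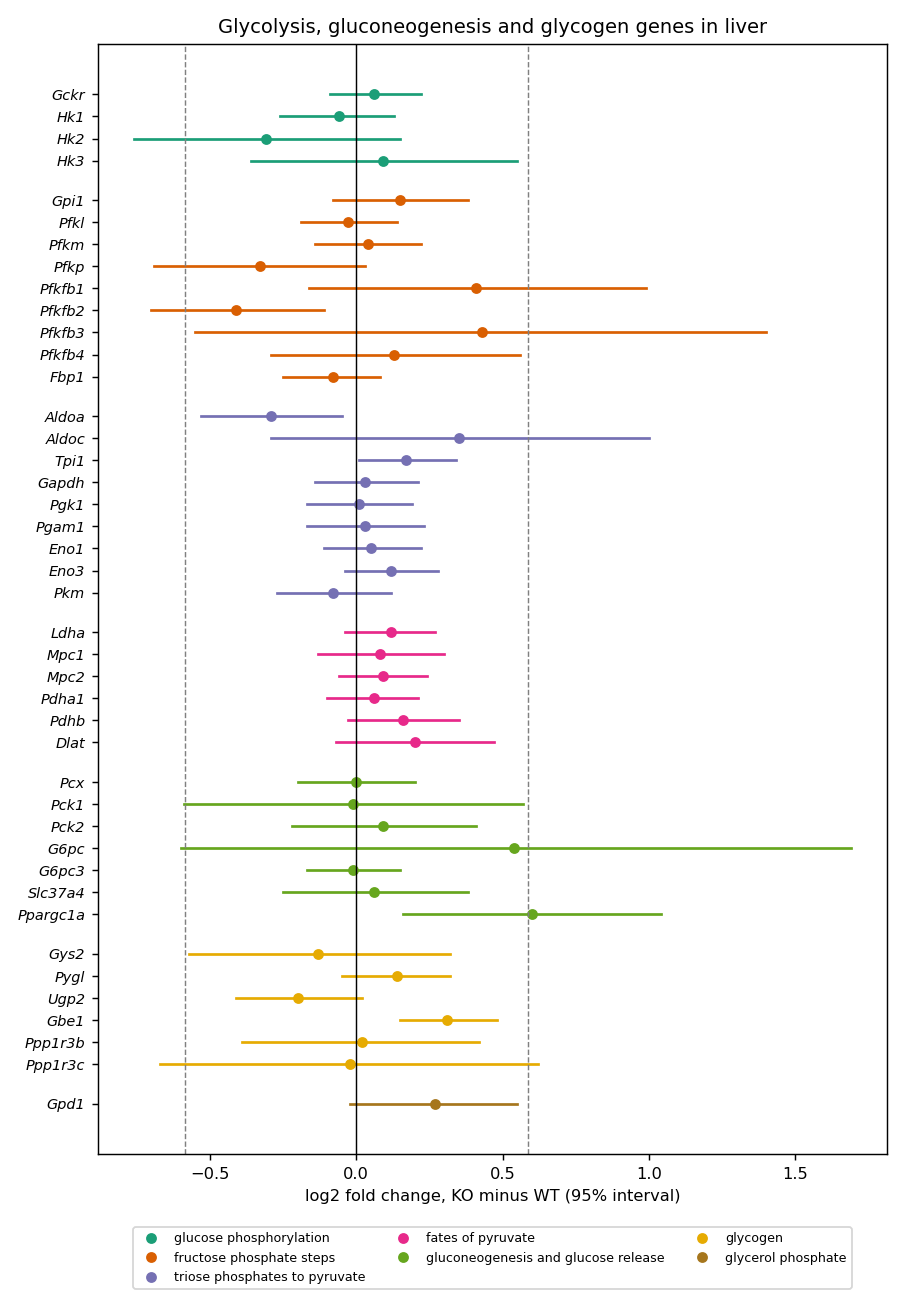
Difference between KO and WT liver (log2, horizontal axis) for the 42 tested members, ordered and colored by role; points are the limma estimates from 4 against 4 mice, bars the 95% intervals, and dashed lines a 1.5-fold difference. Only the bars of *Ppargc1a*, *Pfkfb2*, *Aldoa*, *Tpi1* and *Gbe1* leave out 0, and the widest belong to *G6pc* and *Pfkfb3*.

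Glucose enters glycolysis by phosphorylation, and *Gckr* encodes a hepatic protein that holds this step back when glucose is low. *Gckr* was 6.68, 6.79, 6.80 and 6.70 in WT and 6.71, 6.79, 6.86 and 6.87 in KO liver, a difference of 0.06 (SE 0.07, 95% interval -0.09 to 0.22, adjusted p = 0.738 from limma). The groups overlapped, and the mice of either genotype were within 1.12-fold of each other.

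The 3 hexokinases of the list belong mainly to other cells. *Hk2*, the hexokinase of muscle and fat, had the lowest difference of this step, with -3.21, -3.08, -3.55 and -2.75 in WT and -3.45, -3.32, -3.16 and -3.88 in KO liver (-0.31, SE 0.20, adjusted p = 0.562 from limma). *Hk3*, known from leukocytes, had the highest, with 1.06, 1.24, 1.66 and 1.77 in WT and 1.10, 1.74, 1.56 and 1.71 in KO liver (0.09, SE 0.20, adjusted p = 0.883 from limma). Neither separated the genotypes, and *Hk3* was lowest in replicate 1 of both. The widely expressed *Hk1* differed by -0.06 (95% interval -0.26 to 0.13). Of 14 Kupffer cell and leukocyte markers, 13 had a probe and 11 were tested, of which 1, *Marco*, was called lower. Their summed linear level was 68.6 to 99.3 in WT and 56.8 to 91.1 in KO liver, and the part of these cells in the *Hk3* values was not tested.

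At the fructose phosphate steps, 10 members include the isomerase, the 3 subunits of phosphofructokinase, the 4 enzymes that make and remove its activator fructose 2,6-bisphosphate, and the 2 fructose bisphosphatases. None of the 9 tested was called, and their median difference was 0.04. The widest differences were among the fructose 2,6-bisphosphate enzymes. *Pfkfb2* had the lowest difference of all 42 members. It was 2.15, 1.86, 2.14 and 1.74 in WT and 1.41, 1.54, 1.83 and 1.49 in KO liver (-0.41, SE 0.13, 95% interval -0.70 to -0.11, adjusted p = 0.243 from limma, exact permutation p = 0.0571). KO replicate 3 lay above the lowest WT mouse and the other 3 KO mice below every WT mouse. The second tested *Pfkfb2* probe differed by -0.15 (SE 0.12).

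*Pfkfb3*, the isoform induced by mitogens and hypoxia, had the highest difference of these steps, 0.43, and an SE of 0.42. It was 3.45, 1.95, 1.58 and 1.71 in WT and 2.40, 3.33, 2.34 and 2.33 in KO liver, so that 1 mouse of each genotype stood above the rest (95% interval -0.55 to 1.40, adjusted p = 0.723 from limma). The difference was 0.85 without WT replicate 1 and 0.18 without KO replicate 2. *Pfkfb1*, the liver isoform, was 3.52, 3.99, 4.00 and 3.09 in WT and 4.07, 4.12, 4.49 and 3.57 in KO liver. The KO mean was higher by 0.41 (SE 0.25, adjusted p = 0.534 from limma), with overlapping groups. Its second probe differed by 0.50 (SE 0.20, adjusted p = 0.352 from limma). *Pfkfb4* differed by 0.13.

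The liver subunit *Pfkl* differed by -0.03 and the muscle subunit *Pfkm* by 0.04, both with intervals within 1.5-fold. For the platelet subunit *Pfkp* the difference was -0.33 (95% interval -0.69 to 0.03). *Fbp1*, the hepatic enzyme that runs this step toward glucose, was 9.42, 9.32, 9.45 and 9.30 in WT and 9.17, 9.32, 9.36 and 9.31 in KO liver. Its difference of -0.08 had an interval from -0.25 to 0.08, which holds a change of 1.5-fold in neither direction. The isomerase *Gpi1* differed by 0.15, and its other 2 probes by 0.12 and 0.17.

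From the triose phosphates to pyruvate, 0 of 9 members was called, 8 of the 9 intervals lay within 1.5-fold, and the median difference was 0.03. *Tpi1*, the triose phosphate isomerase, was 6.43, 6.50, 6.44 and 6.50 in WT and 6.72, 6.57, 6.74 and 6.54 in KO liver. Every KO mouse was above every WT mouse, by a small margin (0.17, SE 0.07, 95% interval 0.01 to 0.34, adjusted p = 0.348 from limma, exact permutation p = 0.0286, the smallest that 4 against 4 mice can give). Its 2 dimmer probes differed by 0.19 and 0.16.

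The 2 aldolases on the list, which belong mainly to other tissues, had differences of opposite sign. *Aldoa*, the widely expressed and muscle aldolase, had the lowest difference of these steps, with 6.31, 6.24, 6.50 and 6.34 in WT and 6.04, 5.95, 6.31 and 5.93 in KO liver. KO replicate 3 lay within the WT range and the other KO mice below it (-0.29, SE 0.10, 95% interval -0.53 to -0.05, adjusted p = 0.282 from limma, exact permutation p = 0.0857). *Aldoc*, the brain type, had the highest, with 2.70, 3.92, 3.72 and 3.60 in WT and 3.53, 4.18, 4.13 and 3.52 in KO liver (0.35, SE 0.28, adjusted p = 0.646 from limma). WT replicate 1 was the lowest of all 8, and on its second probe too, at 0.62 beside 1.48 to 2.11 in the other mice. Without it the *Aldoc* difference was 0.09.

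The other enzymes of this stretch had small differences. *Gapdh* differed by 0.03 on its brightest probe and by 0.00 to 0.06 on 5 dimmer ones. *Pgk1* differed by 0.01, *Pgam1* by 0.03, the enolases *Eno1* and *Eno3* by 0.05 and 0.12, and *Pkm*, the pyruvate kinase of most tissues but hepatocytes, by -0.08. None of their intervals reached 1.5-fold. *Gapdh*, *Eno1* and *Aldoa* have many near-identical pseudogenes or relatives, and whether a probe also took up other RNA was not tested. Beside the muscle forms *Eno3* and *Pfkm*, 8 skeletal muscle markers were read. *Mylpf*, *Tnnt3* and *Pvalb* were well above background in all mice and 0 was called, *Acta1* and *Myh4* were so on 1 array each, and *Ckm*, *Myh1* and *Ttn* on none. Their summed linear level was 1.98 to 2.41 in WT and 1.98 to 2.42 in KO liver, and the part of muscle RNA in these values was not tested.

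Pyruvate can be turned into lactate, carried into mitochondria or oxidized to acetyl-CoA. All 6 members here had a difference above 0, from 0.06 for *Pdha1* to 0.20 for *Dlat*, and 0 was called. *Pdha1*, the E1 alpha subunit of pyruvate dehydrogenase, was 3.54, 3.53, 3.49 and 3.55 in WT and 3.45, 3.60, 3.68 and 3.60 in KO liver. *Dlat*, the E2 subunit, was 0.82, 0.83, 0.77 and 1.09 in WT and 0.86, 1.13, 0.99 and 1.34 in KO liver (SE 0.12, adjusted p = 0.523 from limma). In both genes the groups overlapped.

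A dimmer *Dlat* probe, singled out after its values were seen, gave 0.56, 0.55, 0.52 and 0.73 in WT and 0.94, 0.97, 1.29 and 1.04 in KO liver. It separated the genotypes, with a difference of 0.47 (SE 0.10, adjusted p = 0.0926 from limma) that stayed under 1.5-fold, so the probes of *Dlat* disagree in size. *Ldha*, which makes lactate, was 8.64, 8.60, 8.64 and 8.79 in WT and 8.80, 8.81, 8.72 and 8.81 in KO liver (0.12, SE 0.07, adjusted p = 0.519 from limma). The pyruvate carrier subunits *Mpc1* and *Mpc2* differed by 0.08 and 0.09, and *Pdhb* by 0.16.

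Gluconeogenesis and glucose release held the largest difference and the largest spread of the 42 members. *Pcx*, which starts the path by making oxaloacetate from pyruvate, was 6.58, 6.70, 6.63 and 6.65 in WT and 6.46, 6.83, 6.65 and 6.62 in KO liver. The means were the same to 2 decimals (0.00, 95% interval -0.20 to 0.20). *Pck1*, which makes phosphoenolpyruvate in the cytosol, was 7.24, 7.50, 8.05 and 8.38 in WT and 7.49, 8.06, 7.63 and 7.95 in KO liver. All 4 KO mice lay within the WT range, which spanned 2.21-fold. The difference was -0.01 with an interval from -0.59 to 0.57, which reaches a change of about 1.5-fold in either direction. The mitochondrial form *Pck2* differed by 0.09 (95% interval -0.22 to 0.41).

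*G6pc*, the catalytic subunit that frees glucose from glucose 6-phosphate, was 6.94, 5.30, 6.44 and 7.02 in WT and 7.30, 7.37, 5.69 and 7.52 in KO liver. The highest 3 values were KO mice, while KO replicate 3 was lower than 3 of the WT mice. The difference of 0.54 had an SE of 0.50 (95% interval -0.60 to 1.69, adjusted p = 0.697 from limma), and the mice spanned 3.28-fold within WT and 3.58-fold within KO. Without WT replicate 2 the difference was 0.17, and without KO replicate 3 it was 0.97. *Slc37a4*, which carries glucose 6-phosphate to that enzyme, was 5.98, 6.00, 6.24 and 5.74 in WT and 5.75, 6.26, 6.04 and 6.16 in KO liver (0.06, 95% interval -0.25 to 0.38). *G6pc3*, the widely expressed phosphatase, differed by -0.01 (95% interval -0.17 to 0.15).

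*Ppargc1a* encodes the coactivator PGC-1 alpha, which drives gluconeogenic and mitochondrial genes. It was 0.63, 0.83, 0.87 and 1.32 in WT and 1.66, 1.41, 1.86 and 1.13 in KO liver. Only WT replicate 4 and KO replicate 4 crossed, and the KO mean was 1.52-fold the WT mean, the largest ratio of the 42 (0.60, SE 0.19, 95% interval 0.16 to 1.04, adjusted p = 0.237 from limma, exact permutation p = 0.0571). The adjusted p missed the limit with all 8 arrays and passed it without WT replicate 4 (0.74, adjusted p = 0.142 from limma) or without KO replicate 4 (0.73, adjusted p = 0.185 from limma). These are the 2 mice that crossed, and leaving out any other array gave *Ppargc1a* an adjusted p of 0.355 to 0.422 from limma. Its dimmer probe differed by 0.58 (SE 0.26, adjusted p = 0.393 from limma). *Pck1* and *G6pc* are known targets of this coactivator. Within WT *Pck1* ranked the mice as *Ppargc1a* did (r = 0.91 over 4 mice), and within KO it did not (r = -0.75 over 4 mice). Over all 8 mice r was 0.18 (exact permutation p = 0.659, adjusted p = 0.942) and rho 0.26 (exact permutation p = 0.536, adjusted p = 0.887). The highest *Ppargc1a* value, in KO replicate 3, came with the lowest *G6pc* value of the KO mice.

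**Figure D2:**
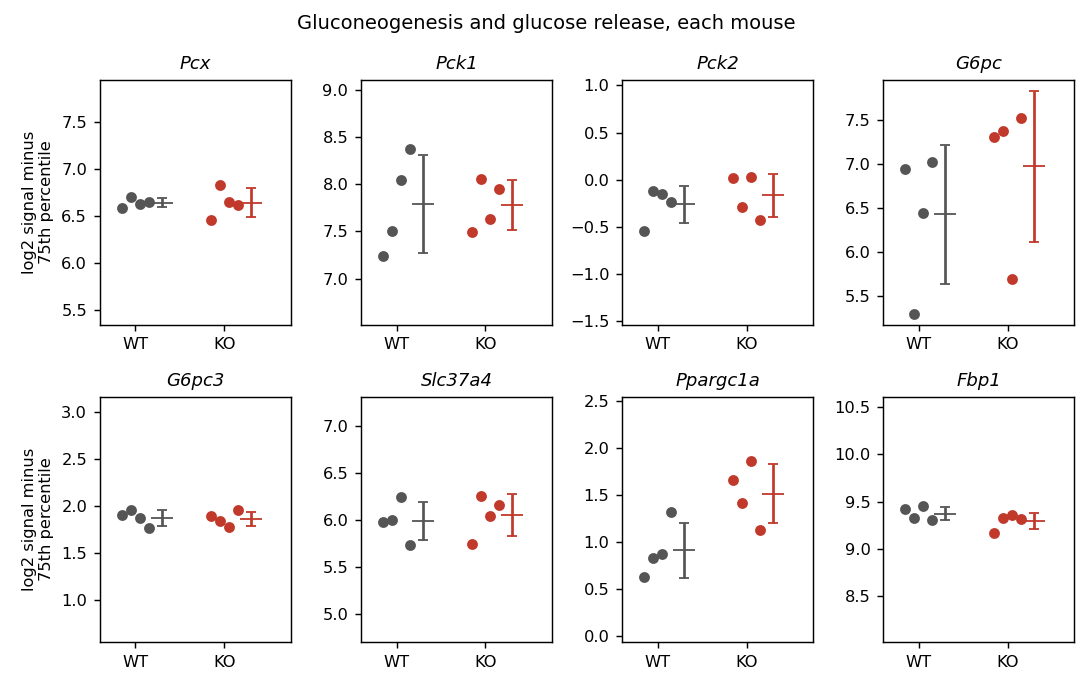
Log2 signal minus the array's 75th percentile in each of 4 WT (gray) and 4 KO (red) mice for 8 members of gluconeogenesis and glucose release, with mean and SD beside the points. *G6pc* scatters widely within both genotypes and *Pck1* mainly within WT. *Pcx*, *G6pc3* and *Fbp1* barely scatter, and *Ppargc1a* has 3 of 4 KO mice above every WT mouse.

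For glycogen, 0 of 6 members was called and the median difference was 0.00. *Gbe1*, the branching enzyme, was 4.92, 4.70, 4.84 and 4.92 in WT and 5.12, 5.14, 5.23 and 5.15 in KO liver. Every KO mouse was above every WT mouse, with a fold of 1.24 (0.31, SE 0.07, 95% interval 0.15 to 0.48, adjusted p = 0.129 from limma, exact permutation p = 0.0286). The dimmer *Gbe1* probe gave 1.72, 1.51, 1.70 and 1.79 in WT and 2.02, 2.02, 2.14 and 2.04 in KO liver. It also separated the genotypes (0.37, SE 0.08, adjusted p = 0.0994 from limma). Both probes thus passed the limit on p and stayed under the 1.5-fold limit.

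*Ugp2*, which makes the UDP-glucose that glycogen is built from, had the lowest difference of the glycogen members. It was 5.55, 5.65, 5.71 and 5.57 in WT and 5.21, 5.52, 5.57 and 5.40 in KO liver (-0.20, SE 0.09, adjusted p = 0.415 from limma), with KO replicate 1 the lowest. The liver synthase *Gys2* was 5.76, 5.86, 6.61 and 6.21 in WT and 5.66, 6.10, 6.06 and 6.12 in KO liver (-0.13, 95% interval -0.57 to 0.32). The liver phosphorylase *Pygl*, which breaks glycogen down, differed by 0.14 (95% interval -0.05 to 0.32). *Ppp1r3b* and *Ppp1r3c*, which bring protein phosphatase 1 to glycogen, differed by 0.02 and -0.02, the second with an interval from -0.67 to 0.62. *Gpd1*, which links the triose phosphates to glycerol 3-phosphate, was 7.14, 6.92, 6.83 and 7.34 in WT and 7.13, 7.36, 7.38 and 7.44 in KO liver (0.27, SE 0.12, 95% interval -0.02 to 0.55, adjusted p = 0.406 from limma), with overlapping groups.

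For most members, as for most tested probes, the mice of 1 genotype differed little from each other. The SD within genotypes was under 0.2 for 27 of the 42, beside 58.9% of all tested probes, and its median was 0.13, beside 0.17 for all probes. It was over 0.3 for 10 members, beside 19.9% of all probes. *G6pc* was the most variable, with an SD of 0.83 that exceeded that of 99.0% of all tested probes, followed by *Pfkfb3* (0.70), *Aldoc* and *Ppp1r3c* (0.46 each), and *Pck1* and *Pfkfb1* (0.41 each). *Mpc2*, *Ldha*, *Pdha1*, *Gckr* and *Eno3* were the least variable, at 0.06 to 0.07. *Pcx* at 0.11 and *Fbp1* at 0.08 were steady although they share the gluconeogenic path with *Pck1* and *G6pc*.

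**Figure D3:**
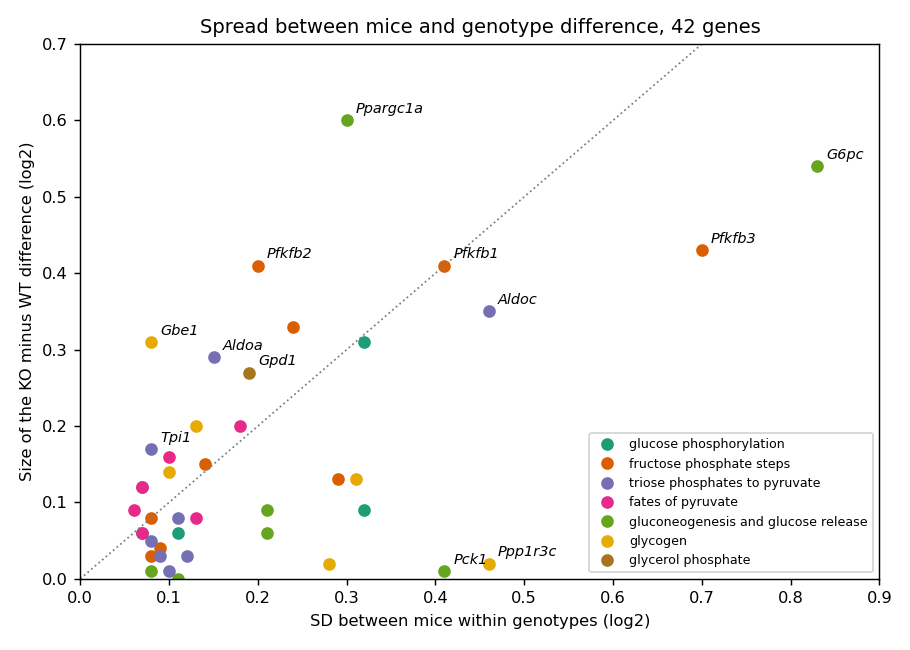
SD between mice within genotypes (horizontal axis, log2) against the size of the KO minus WT difference (vertical axis, log2) for the 42 tested members, colored by role, with the dotted line where they are equal. *G6pc* and *Pfkfb3* lie far right with a difference smaller than their spread, and *Ppargc1a*, *Pfkfb2* and *Gbe1* lie above the line.

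Because *Pck1* and *G6pc* spread so widely, each was set against the other tested members over the 8 mice, 81 relations in all, chosen after their spread was seen. *Pck1* and *G6pc* did not rank the mice alike (Pearson r = 0.32, exact permutation p = 0.430, adjusted p = 0.879; Spearman rho = 0.29, exact permutation p = 0.501, adjusted p = 0.882). The relation of *Pck1* with *Hk3* was the only 1 whose adjusted p was under 0.05 (r = 0.91, exact permutation p = 0.000273, adjusted p = 0.0221; rho = 0.98, exact permutation p = 0.000397, adjusted p = 0.0321). It was 0.90 without the 2 mice farthest from the *Pck1* median, 0.93 after centering each genotype on its mean, and 0.84 with the dimmer *Hk3* probe. Within WT r was 0.99 and within KO 0.89, each over 4 mice.

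*Ppp1r3b* followed *Pck1* nearly as closely (r = 0.90, exact permutation p = 0.00228, adjusted p = 0.0924; rho = 0.90, exact permutation p = 0.00456, adjusted p = 0.123), with 0.80 without the 2 farthest mice and 0.90 after centering. *Gys2* had r = 0.75 (exact permutation p = 0.0280, adjusted p = 0.422) and rho = 0.86 (exact permutation p = 0.0107, adjusted p = 0.208), with 0.79 without the 2 farthest mice. The summed Kupffer cell and leukocyte level was also lowest in replicate 1 of both genotypes, at 68.6 in WT and 56.8 in KO, where *Pck1* and *Hk3* were lowest, and its part in these relations was not tested. Of the *G6pc* relations none had an adjusted p under 0.05, and the largest Pearson r was with *Hk1* (r = -0.84, exact permutation p = 0.0108, adjusted p = 0.293; rho = -0.74, exact permutation p = 0.0458, adjusted p = 0.412), which was -0.45 without the 2 farthest mice. By rank the largest was with *Ldha* (rho = 0.93, exact permutation p = 0.00223, adjusted p = 0.0904; r = 0.74, exact permutation p = 0.0348, adjusted p = 0.422), with r = 0.84 without the 2 farthest mice.

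**Figure D4:**
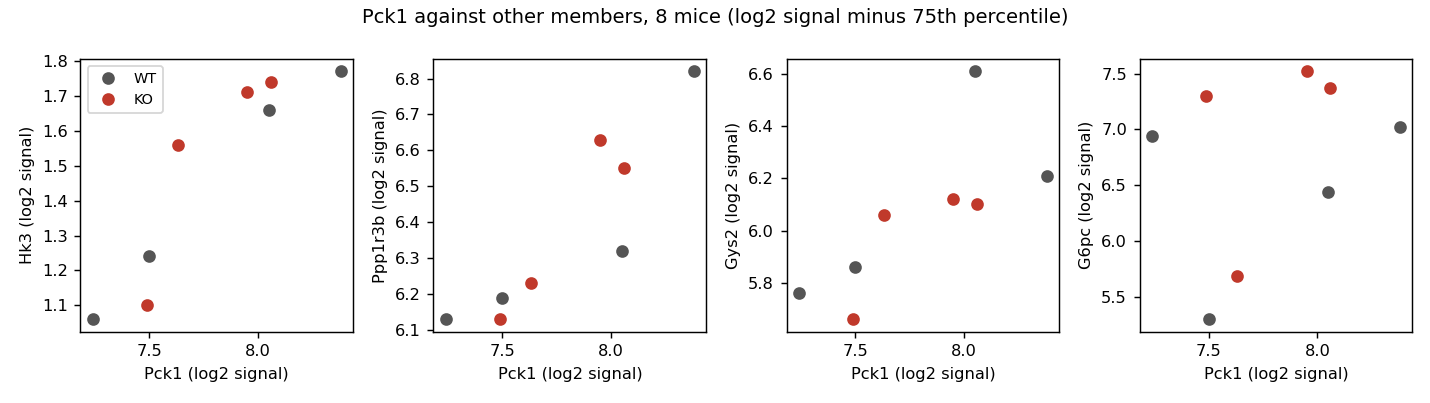
Log2 signal of *Hk3*, *Ppp1r3b*, *Gys2* and *G6pc* (vertical axes) against that of *Pck1* (horizontal axes), 1 point per mouse, WT in gray and KO in red. *Hk3* and *Ppp1r3b* climb with *Pck1* across both genotypes, with r of 0.91 and 0.90, while *G6pc* does not (r = 0.32).

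Around these members, 84 further genes of glucose transport, pyruvate oxidation, glycogen and hormonal control were read by the same rule. Of the 75 tested, 4 were called higher (5.33%, beside 0.939% of all probes) and 0 lower, and WT and KO ranges did not overlap for 11 (14.7%, beside 8.84%). Their median difference was 0.01. The list was drawn up with earlier results of these data known, so these shares describe the listed genes and not the pathway at large. The 4 called genes, all enzymes, were *Pklr*, *Me1*, *Pdk1* and *Pgm3*.

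*Pklr*, the pyruvate kinase of liver and red cells, was 0.87, 0.27, 0.20 and 0.13 in WT and 1.32, 1.13, 1.03 and 1.34 in KO liver. KO liver was 1.78-fold higher (0.84, SE 0.17, adjusted p = 0.0890 from limma), and WT replicate 1 came closest to the KO mice. Of 10 erythroid markers 8 had a probe, 6 were tested and 0 was called. Their summed linear level was 419 to 512 in WT and 289 to 512 in KO liver, and the part of red cells in the *Pklr* values was not tested. *Me1*, malic enzyme, which turns malate into pyruvate and NADPH and is also known as an SREBP1 target, was 5.14, 4.59, 4.21 and 4.43 in WT and 5.55, 5.26, 5.81 and 5.16 in KO liver (0.85, SE 0.22, adjusted p = 0.155 from limma). Its dimmer probe rose by 0.77 (adjusted p = 0.134 from limma).

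*Pdk1*, a kinase that shuts off pyruvate dehydrogenase, was 3.25, 3.30, 3.32 and 3.16 in WT and 3.68, 3.88, 3.90 and 3.97 in KO liver. Its rise of 1.52-fold had the smallest p of the pathway (0.60, SE 0.08, adjusted p = 0.0293 from limma). Of 3 dimmer probes, 2 were called higher as well (0.66 and 0.94) and 1 was not (-0.02). *Pgm3*, which makes N-acetylglucosamine 1-phosphate for the hexosamine path, was 0.94, 1.07, 1.20 and 1.09 in WT and 1.52, 1.89, 1.90 and 1.60 in KO liver (0.65, SE 0.11, adjusted p = 0.0552 from limma), and its dimmer probe was called too (0.63).

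Single arrays ended some of these calls. Without WT replicate 2 or WT replicate 3 only *Pdk1* and *Pgm3* were called of the 84, with adjusted p from limma of 0.203 and 0.228 for *Pklr* and 0.289 and 0.326 for *Me1*. *Me1* also lost its call without WT replicate 4 (adjusted p = 0.217 from limma) and without KO replicate 1, 2 or 3 (adjusted p = 0.249 to 0.272 from limma). *Pdk1* fell just under 1.5-fold without WT replicate 4 (0.57) or KO replicate 4 (0.56), with median normalization (0.56) and with its probes averaged (0.55). *Pgm3* did so under normexp (0.57). Without WT replicate 4, *Pdk4* and *Sik1* were called higher in place of *Pdk1* and *Me1*.

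Among the 7 genes whose ranges did not overlap without a call, *Slc2a2*, the glucose transporter GLUT2 of hepatocytes, was 2.47, 2.75, 2.83 and 2.68 in WT and 2.83, 2.99, 2.95 and 3.02 in KO liver, touching at 2.83 when rounded (0.26, SE 0.09, adjusted p = 0.275 from limma). *Phkg2*, the catalytic subunit of liver phosphorylase kinase, was 3.47, 3.54, 3.40 and 3.47 in WT and 3.18, 3.25, 3.21 and 3.28 in KO liver. All KO mice were below all WT mice (-0.24, SE 0.06, adjusted p = 0.160 from limma), with a difference under 1.5-fold. The others were *Galm* (0.18), *Tkfc* (0.22), *Pygb* (0.38), *Gaa* (0.10) and *Ppp1cc* (-0.21), with adjusted p from limma of 0.260 to 0.517. Of the 21 tested regulators of hepatic glucose output, among them *Foxo1*, *Hnf4a*, *Crtc2* and *Gcgr*, 0 was called in either direction, 1, *Hnf4a*, had an unadjusted limma p under 0.05 (-0.33, adjusted p = 0.276 from limma), and the ranges of none stood apart.

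**Figure D5:**
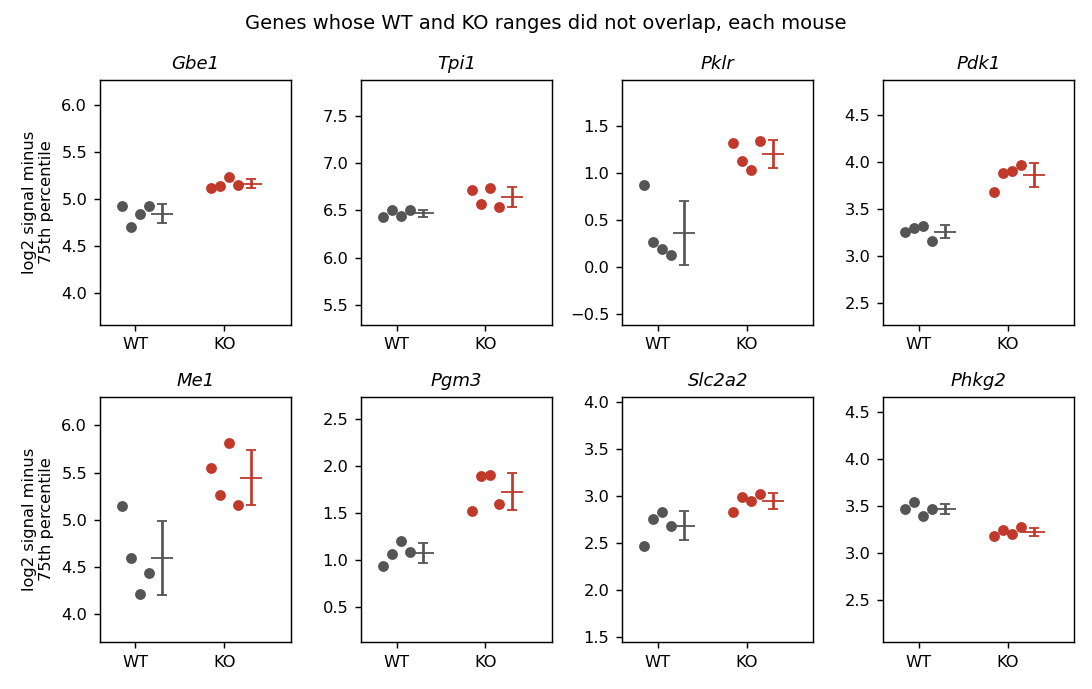
Log2 signal, scaled as above, in each of 4 WT (gray) and 4 KO (red) mice for 2 members, *Gbe1* and *Tpi1*, and 6 other genes of the pathway, with mean and SD beside the points. All 4 KO mice lie above all WT mice in each panel but *Phkg2*, where they lie below, and the gap is widest relative to the scatter for *Pdk1*.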

How the data were processed

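Liver RNA of 4 *Agpat3* WT and 4 *Agpat3* KO mice was hybridized to 8 Agilent arrays with Cy3. What the authors deposited is the background-corrected intensity of each spot from Agilent Feature Extraction 10.7.1.1 (its processed signal), and a table of log2 values. The log2 of that intensity minus its 75th percentile differs from those values by a median of -0.0054, and by 0.5381 in size at most. No spot was saturated, and local background was 27 to 32 units on all arrays. With 4 arrays per genotype, their number limits the precision, and so does the signal over background for dim probes. The labels name no litters or days, so p-values measure the spread between these mice only.

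Control and outlier spots were dropped, the 75th percentile of an array was subtracted from its log2 intensities, and repeated spots were averaged per probe. A probe was tested if every array of WT, of KO or of both had it well above background (29069 of 56605). The two-sided test was limma's (version 3.58.1, R 4.3.3; lmFit, then eBayes), with Benjamini-Hochberg adjustment across all tested probes. Exact permutation tests used all 70 assignments of 4 and 4 mice, or all orders of 8 mice for correlations, which were adjusted by Benjamini-Hochberg over the 81 relations. The test was tried on simulated data. Symbols came from RefSeq (GRCm38.p6) through transcript accessions, which named 32994 probes, while the scanner files name mm9, so no gene coordinates are given beside those of the RefSeq stretches. All 43 members and the 84 further genes matched.

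The members, gene lists and thresholds were chosen with earlier results of these data known. Values per mouse are given for members that were called, whose ranges did not overlap, that were highest or lowest in their role, or in which 1 array stood apart. The rule also names *Pck1*, *G6pc*, *Ppargc1a*, *Pcx*, *Slc37a4* and *Gckr*. *Pfkfb1*, *Fbp1* and second probes were added outside it, after their values were seen. A few genes that this rule names are not reported. Of the other marker lists, stellate and endothelial (12 tested), cholangiocyte (4 tested) and pancreatic acinar (6 tested) had 0 called. Alternatives were normexp with an offset of 50 on the median spot signal, median and quantile normalization, other filters, the deposited log2 values, outlier spots kept, eBayes with trend and robust, a replicate block, each array left out, all probes of a gene averaged, other thresholds and an unpaired t test.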

Additional observations from a re-analysis of the deposited data

Results flagged for a closer look

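In 4 of 96 groups of 4 mice examined (4.17%), 1 array stood apart from the other 3 by Dixon's criterion, and chance alone marks about 1 in 20 groups. KO replicate 3 had the lowest KO signal of *G6pc*, 5.69 beside 7.30 to 7.52, and of *Ldha*, 8.72 beside 8.80 to 8.81. *Pfkfb3*, which makes and removes fructose 2,6-bisphosphate, reached 3.33 in KO replicate 2, beside 2.33 to 2.40 in the remaining KO mice. *Gys2* was at 5.66 in KO replicate 1, beside 6.06 to 6.12. All 4 probes were well above background on all KO arrays. The cause of these values was not tested.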

How the results depend on the processing

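The count of 0 members called lower was the same under every alternative tried. The count of 0 members called higher became 1 without WT replicate 4, without KO replicate 4 (0 to 1 over the arrays left out) and at an unadjusted limma p under 0.05 with a fold change over 1.5, each time *Ppargc1a*, and 1 at an adjusted p under 0.2 with no minimum fold, then *Gbe1*. The unpaired t test called 0 members. The count of 4 pathway genes called higher ranged from 2 to 4 over the arrays left out, and was 2 with no filter on dim probes, where more probes enter the adjustment, 1 at an adjusted p under 0.05, and 3 under normexp, median normalization, averaged probes and the unpaired t test. The count of pathway genes called lower became 1, *Phkg2*, with no minimum fold. With the replicate block 0 members and 4 pathway genes were called, as without it. Samples with the same number deviated together with correlations of 0.331, -0.109, 0.103 and 0.319, and those with different numbers with -0.272 to 0.270. The largest values were thus of the same number, for replicates 1 and 4, while replicate 2 had a negative one. The labels name no pairs, and the numbers were not taken as such. Over 29 named genes, 492 of 522 alternative values kept their direction and stayed called or not called. Of the rest, 15 lost a call, 2 gained one and 13 changed sign, the last in 4 genes whose difference was near 0. Over the arrays left out *G6pc* lay between 0.17 and 0.97, *Pfkfb3* between 0.18 and 0.85 and *Aldoc* between 0.09 and 0.50. *Pck1* changed sign with quantile normalization (0.04) and without WT replicate 3 or 4 or KO replicate 1 or 3 (-0.19 to 0.19 over the arrays left out). *Pcx* did so with median normalization (-0.04) and without WT replicate 1 or 3 or KO replicate 2 or 3 (-0.06 to 0.06). *Slc37a4* did so without WT replicate 4 or KO replicate 2 (-0.02 to 0.16) and *Hk3* without WT replicate 1 (-0.03 to 0.24). No scaling moved the median difference of all probes by more than 0.04. The cause of these changes was not tested.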
